A study of Mus musculus with 4 samples.

Results

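The genes described here encode proteins that decide whether a cell enters apoptosis: 7 proteins of the BCL2 family (*Bcl2*, *Bcl2l1*, *Mcl1*, *Bak1*, *Bcl2l11*, *Bid* and *Bad*) and 2 initiator caspases (*Casp8* and *Casp9*). They were taken by their symbols from the deposited count table, which lists 22063 genes. All 9 were detected in every library, between 179 and 3218 counts, and all 9 passed the filter on low counts, which left 11727 genes to test.

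RNA-sequencing was made from TKPTS cells, a mouse renal proximal tubular line of wild-type genotype that the sample labels call TKPT. All libraries came from cells kept for 24 h in 1% oxygen and then returned to normal oxygen for 12 h, a model of hypoxia and reoxygenation injury, and no library of cells without hypoxia is compared here. There were 2 libraries of cells transfected with a scrambled siRNA (si-NC, replicates 2 and 3) and 2 of cells transfected with an siRNA against *Itgb6*, the gene of the integrin beta 6 subunit (si-*Itgb6*, replicates 1 and 3). The labels do not say that replicates came from separate cultures, so p-values measure only the spread between these libraries, which may be technical.

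Apoptosis through mitochondria is set off when pore-forming proteins such as BAK permeabilize the outer mitochondrial membrane. Anti-apoptotic proteins such as BCL2, BCL-XL and MCL1 hold the pore formers and their activators in check, while the BH3-only proteins BIM, BID and BAD bind into a groove on these proteins through a short helix called the BH3 region. Cytochrome c released from mitochondria lets APAF1 activate caspase-9, whereas death receptors activate caspase-8 at the cell surface, which can also cleave BID and so join both routes. In the kidney, proximal tubule cells are known for their sensitivity to death by this program after ischemia.

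The BH3 region is the feature the BCL2 family members have in common, and its coding stretch is shown for the 7 genes, because BH3-only proteins act through it and their targets carry one of their own. Each line gives 8 codons from the longest complete coding transcript of GENCODE vM21 (GRCm38), 5′ to 3′ on the strand of the gene. Capitals mark the codon of a leucine and, further on, the codons of a glycine and the aspartate after it.
Bcl2: CTCcgccgggctGGGGATgacttc
Bcl2l1: CTGagagaggcaGGCGATgagttt
Mcl1: CTGcggcgcgtgGGCGACggcgtg
Bak1: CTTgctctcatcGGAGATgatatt
Bcl2l11: CTGcggcggatcGGAGACgagttc
Bid: CTCgcccaaataGGCGATgagatg
Bad: CTCcgaaggatgAGCGATgagttt
The stretch with leucine, glycine and aspartate at this spacing was found once in each of 6 members. In *Bad* the codon before the aspartate is not a glycine codon, and only the leucine and aspartate matched. Set against the stretch of *Bcl2l11*, the others differed at between 8 and 11 of the 24 bases. A match of these letters describes the coding sequence and is not a measurement of binding.

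For the caspases, the stretch that encodes the catalytic cysteine and its neighbours is shown, since it is what makes both proteins proteases. Capitals mark the cysteine codon within 15 bases.
Casp8: caggctTGCcaagga
Casp9: caggccTGCggtggt
The stretch was found once in each gene, at codons 380 to 384 of 500 in *Casp8* and 323 to 327 of 454 in *Casp9*.

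Some facts of the libraries bear on the comparison. *Itgb6*, the siRNA target, had 285 and 284 counts in si-NC and 279 and 260 counts in si-*Itgb6* (log2 fold change -0.0051, SE 0.13, adjusted p = 0.991, Benjamini-Hochberg adjustment of the quasi-likelihood test of edgeR, as for all adjusted values here). The RNA of the target did not differ between the labels beyond the spread of the libraries, and groups are named by their labels. For the protein, the study reported a western blot in which si-*Itgb6* lowered the integrin in hypoxic TKPTS cells. The methods of the study name qPCR as well as western blot as checks of how well the siRNA worked. The lower target RNA that such a qPCR check implies was not seen in the counts of these libraries. The libraries held between 15435074 and 17220281 counts, and replicates differed by more than counting noise, with a chi-square per gene of 3.15 in si-NC and 4.0 in si-*Itgb6*. Among 8 proximal tubule markers, *Slc34a1* and *Slc5a2* were at 0 in every library, *Lrp2* had 2 to 17 counts and *Pax8* 4682 to 5884, and *Aqp1* rose by 0.59 on the log2 scale (adjusted p = 0.000617, edgeR; 0.148 at 0.48 without si-NC replicate 2), while all 4 epithelial markers were detected. In CPM, which are counts scaled to the normalized library size, the proximal tubule markers summed to between 316 and 374 in si-NC and between 355 and 400 in si-*Itgb6*. The epithelial markers summed to between 2432 and 2477 CPM in si-NC and between 2232 and 2288 CPM in si-*Itgb6*, and 1 of the 4, *Krt8*, fell by 0.20 (adjusted p = 0.00881, edgeR). The adjusted p of *Krt8* was above 0.05 once GC and length trends were taken out (0.199, at -0.11) and without si-NC replicate 2 (0.322) or si-NC replicate 3 (0.144). The 8 macrophage markers summed to between 142 and 152 CPM in si-NC and between 133 and 137 CPM in si-*Itgb6*, nearly all of it from *Cd68* and *Csf1r*, while *Ptprc* had 0 to 6 and *Adgre1* 0 to 1 counts. The 5 fibroblast markers summed to at most 4.52 CPM in any library and *Acta2* was at 0 in each. The part of these markers in the results was not tested.

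Of the 9 genes, *Bcl2l1* was the 1 that passed an adjusted p of 0.05, and it fell by 0.20 on the log2 scale in the libraries labelled si-*Itgb6*. Across all genes tested, 4.62% passed this threshold. By the looser rule of the study, an unadjusted p under 0.05 together with a fold change over 1.2, *Casp9* was called lower and *Bcl2* higher. That is 2 of 9 genes (22.2%), against 9.57% of all genes tested, of which 5.2% were lower and 4.37% higher. The normalized counts of the groups did not overlap for 4 of the 9, against 49.2% of all genes tested. The median log2 fold change of the 9 genes was -0.02, with 5 below and 4 above 0, and that of all genes tested was 0.00017. In bulk RNA, fewer cells of a kind and less RNA per cell cannot be told apart.

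**Figure D1:**
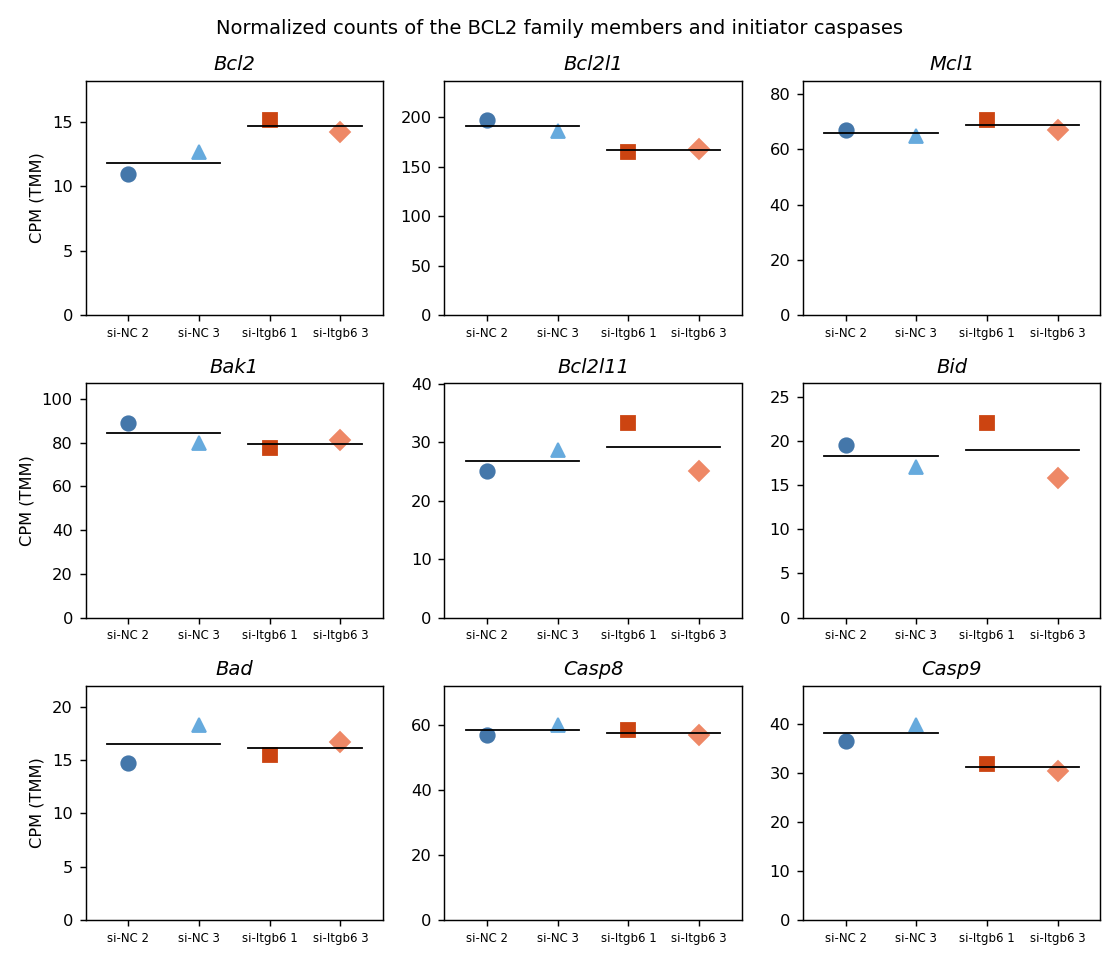
Normalized counts (CPM after TMM scaling, each axis from 0) of the 9 genes in the 4 libraries; points are libraries and black lines are the group means. *Bcl2l1* and *Casp9* lie lower in both si-*Itgb6* libraries, and *Bcl2* and, by a narrow margin, *Mcl1* lie higher. *Bcl2l11* and *Bid* are highest in si-*Itgb6* replicate 1 and lowest in si-*Itgb6* replicate 3.

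Of the anti-apoptotic genes, *Bcl2l1* fell, while *Bcl2* and *Mcl1* had positive values that did not pass the adjustment. *Bcl2l1* (ENSMUSG00000007659), which encodes BCL-XL and the shorter BCL-XS by alternative splicing, spans chr2:152780668-152831728 on the minus strand, with its BH3 stretch in exon 2 of 3 at chr2:152829700-152829723. It had 197 and 186 CPM in si-NC replicates 2 and 3, and 165 and 169 CPM in si-*Itgb6* replicates 1 and 3. Both si-*Itgb6* libraries lay below both si-NC libraries, and the distance between the groups was wider than that within either. Mean levels were 192 ± 8.15 CPM for si-NC against 167 ± 2.55 CPM for si-*Itgb6* (SD, n = 2 each), so that si-*Itgb6* had 0.871 of the si-NC level, with a 95% confidence interval from 0.801 to 0.946. The log2 difference had an SE of 0.0589 and an adjusted p of 0.0442 (edgeR, quasi-likelihood). The size is below the fold change of 1.2, so *Bcl2l1* was not called by the looser rule. Its adjusted p rose above 0.05 without si-NC replicate 2 (0.572, at a log2 fold change of -0.16), without si-NC replicate 3 (0.129, at -0.24) or when si-*Itgb6* replicate 1 was left out (0.0661, at -0.19), and it was 0.0494 in the fit lacking si-*Itgb6* replicate 3. After lowess trends on GC content and on length were taken out (called the GC and length correction), the log2 fold change was -0.12 (adjusted p = 0.305), and the adjusted p was 0.0514 with RLE factors and 0.0631 with DESeq2. The GC content of its longest transcript was 55.9%, against a median of 49.8% over the genes tested.

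*Bcl2* (ENSMUSG00000057329), the founding anti-apoptotic gene of the family, lies at chr1:106538178-106714274 on the minus strand, with its BH3 stretch in exon 1 of 2 at chr1:106712578-106712601. It had 11.0 and 12.7 CPM in si-NC, from 179 and 219 counts, and 15.1 and 14.2 CPM in si-*Itgb6*, from 234 counts in each. The direction was thus opposite to that of *Bcl2l1*, and again the groups did not overlap. Its log2 fold change was 0.31 (SE 0.146, 95% interval 0.01 to 0.61, unadjusted p = 0.0427, adjusted p = 0.253, edgeR, quasi-likelihood). The difference therefore did not pass the adjustment over all genes. The call by the looser rule was lost without si-NC replicate 2 (log2 fold change 0.21), si-*Itgb6* replicate 1 (0.26) or si-*Itgb6* replicate 3 (0.35), and with DESeq2, library size only or the GC and length correction.

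*Mcl1* (ENSMUSG00000038612), whose protein is short-lived and controlled by ubiquitin ligases, lies at chr3:95658788-95663176 on the plus strand, with its BH3 stretch in exon 1 of 3 at chr3:95659436-95659459. Its level was even, at 67.1 and 64.7 CPM in si-NC and 70.6 and 67.1 CPM in si-*Itgb6*. The si-*Itgb6* libraries both lay above those of si-NC, in 1 case by less than the last digit shown. The log2 fold change was 0.06 (95% interval -0.09 to 0.22, adjusted p = 0.724, edgeR, quasi-likelihood).

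*Bak1* (ENSMUSG00000057789), the gene of the pore-forming effector BAK, lies at chr17:27019810-27029009 on the minus strand, with its BH3 stretch in exon 4 of 6 at chr17:27022534-27022557. It had 89.2 and 79.7 CPM in si-NC and 77.4 and 81.3 CPM in si-*Itgb6*. The groups overlapped, since si-*Itgb6* replicate 3 stood above si-NC replicate 3. The log2 fold change was -0.09 (95% interval -0.24 to 0.06, adjusted p = 0.573, edgeR, quasi-likelihood), and it was 0.0050 with the GC and length correction.

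The 3 BH3-only genes passed neither threshold, and for *Bcl2l11* and *Bid* the widest spread lay within si-*Itgb6*. *Bcl2l11* (ENSMUSG00000027381; chr2:128126038-128162547, plus strand, BH3 stretch in exon 3 of 4 at chr2:128147150-128147173) encodes BIM, an activator of BAX and BAK. It had 25.1 and 28.7 CPM in si-NC, and 33.4 and 25.0 CPM in si-*Itgb6*, so the highest and the lowest library of the 4 were the si-*Itgb6* pair, 1.33-fold apart. Its log2 fold change was 0.12 (SE 0.121, adjusted p = 0.663, edgeR, quasi-likelihood). *Bid* (ENSMUSG00000004446; chr6:120891930-120916853, minus strand, BH3 stretch in exon 4 of 6 at chr6:120897292-120897315), the substrate through which caspase-8 reaches the mitochondria, had 19.6 and 17.1 CPM in si-NC, and 22.1 and 15.9 CPM in si-*Itgb6*. The si-*Itgb6* libraries again held the highest and the lowest value, 1.39-fold apart, against 1.15-fold within si-NC. *Bid* had a log2 fold change of 0.05 (SE 0.140, adjusted p = 0.897, the same edgeR test). For both genes the sign of the difference turned without si-*Itgb6* replicate 1, to -0.10 for *Bcl2l11* and -0.21 for *Bid*, and that of *Bid* also without si-NC replicate 3, to -0.043. Without si-*Itgb6* replicate 3, *Bcl2l11* was called higher, at 0.32 (unadjusted p = 0.0146, adjusted p = 0.169, edgeR). In si-*Itgb6* replicate 1, *Col1a1*, *Col1a2* and *Lyz2*, markers of fibroblasts and macrophages, had 22, 11 and 11 counts, against 0 to 2 in the other libraries. Most other markers of these lists were not raised there. *Ptprc*, *Adgre1* and *Acta2* had 0 counts, *Pdgfrb* had its lowest value (2.26 CPM) and *Itgam* its highest (2 counts). The rest lay within the range of the other libraries. The part of these markers in the values of *Bcl2l11* and *Bid* was not tested.

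*Bad* (ENSMUSG00000024959; chr19:6941861-6951899, plus strand, BH3 stretch in exon 3 of 4 at chr19:6950792-6950815) encodes a BH3-only protein that survival kinases such as AKT hold inactive by phosphorylation. It had 14.7 and 18.3 CPM in si-NC, and 15.5 and 16.7 CPM in si-*Itgb6*. Here the wider spread was within si-NC, and both si-*Itgb6* libraries fell inside it. Its log2 fold change was -0.04 (95% interval -0.31 to 0.24, adjusted p = 0.922, edgeR, quasi-likelihood). Its estimated count was not whole in 3 libraries, and its level is uncertain to that extent.

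Of the initiator caspases, *Casp9* was called lower and *Casp8* was not called. *Casp9* (ENSMUSG00000028914; chr4:141793612-141815976, plus strand, active-site stretch in exon 6 of 9 at chr4:141807247-141807261), the initiator caspase of the mitochondrial route, had 36.4 and 39.7 CPM in si-NC, and 31.8 and 30.4 CPM in si-*Itgb6*. These came from 594 and 686 counts in si-NC and from 492 and 501 counts in si-*Itgb6*, and the groups did not overlap. Mean levels were 38.1 ± 2.33 CPM for si-NC against 31.1 ± 0.959 CPM for si-*Itgb6* (SD, n = 2 each), and si-*Itgb6* stood at 0.817 of the si-NC level, with a 95% confidence interval from 0.710 to 0.939. Between the groups, the log2 fold change was -0.29 (SE 0.0986, unadjusted p = 0.00570, adjusted p = 0.0820, edgeR, quasi-likelihood). It was the member with the largest negative value, but it did not pass the adjustment. The call by the looser rule held under 7 of the 8 alternatives of test, scaling, filter and trend at the same fold threshold, and was lost with the GC and length correction, where the log2 fold change was -0.22 (unadjusted p = 0.0282, edgeR). Leaving out si-NC replicate 3 (-0.22) or si-*Itgb6* replicate 3 (-0.26) ended it too.

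*Casp8* (ENSMUSG00000026029; chr1:58795374-58847503, plus strand, active-site stretch in exon 9 of 10 at chr1:58844613-58844627), the initiator caspase of the death receptors, had 56.9 and 59.9 CPM in si-NC, and 58.2 and 56.9 CPM in si-*Itgb6*. Its 4 values were close to each other and the groups overlapped. The log2 fold change was -0.02 (95% interval -0.18 to 0.14, adjusted p = 0.925, edgeR, quasi-likelihood). A difference between the values of *Casp8* and *Casp9* was not tested.

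**Figure D2:**
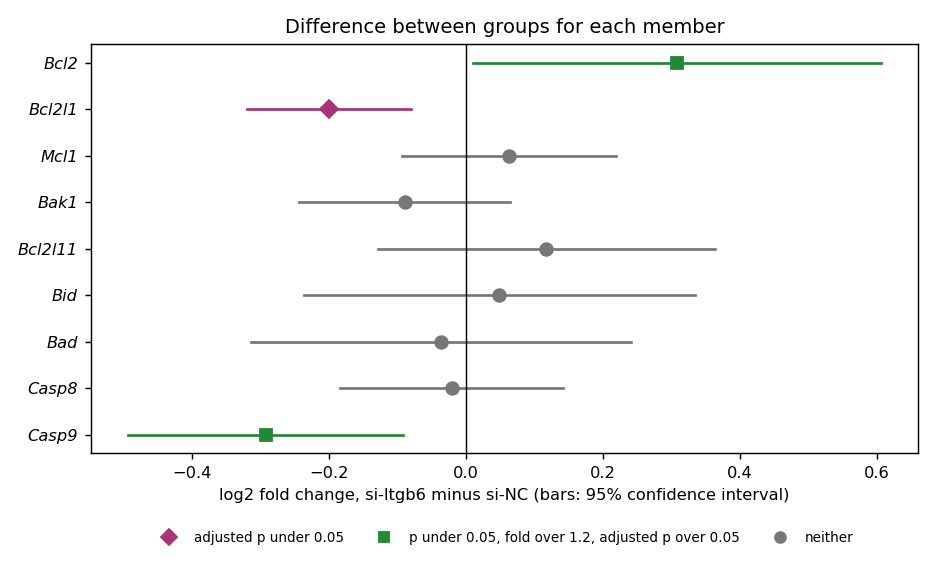
Log2 fold change (si-*Itgb6* minus si-NC, x axis) of each gene from edgeR's quasi-likelihood fit, with bars for the 95% confidence interval. The intervals of *Bcl2*, *Bcl2l1* and *Casp9* do not reach 0, and those of the other 6 genes cross it.

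Levels of different genes were compared per transcript length, as the FPKM values the authors deposited. Per length, *Bcl2l1* was the most abundant of the 9, at 78.0 FPKM over the 4 libraries (72.5 to 85.0), followed by *Bak1* at 50.3 FPKM (46.6 to 54.9) and *Casp8* at 27.9 FPKM (26.7 to 29.1). The ranges of these genes did not overlap, nor did that of *Casp8* with the next in order. *Mcl1* at 19.7 FPKM and *Bad* at 18.8 FPKM overlapped each other. *Casp9* at 9.51 FPKM, *Bid* at 8.52 FPKM and *Bcl2l11* at 7.33 FPKM formed a second overlapping group. *Bcl2* was lowest at 1.84 FPKM (1.54 to 2.11), below all libraries of the other genes. Among the genes tested, the mean FPKM of *Bcl2l1* stood at percentile 90.8 and that of *Bcl2* at percentile 18.9. *Bcl2l1* and *Bcl2*, whose differences between the groups had opposite signs, therefore stood at the ends of the order. In FPKM, *Bcl2l1* averaged 81.9 in si-NC and 74.2 in si-*Itgb6*, *Casp9* averaged 10.7 and 8.31, and *Bcl2* averaged 1.65 and 2.03.

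**Figure D3:**
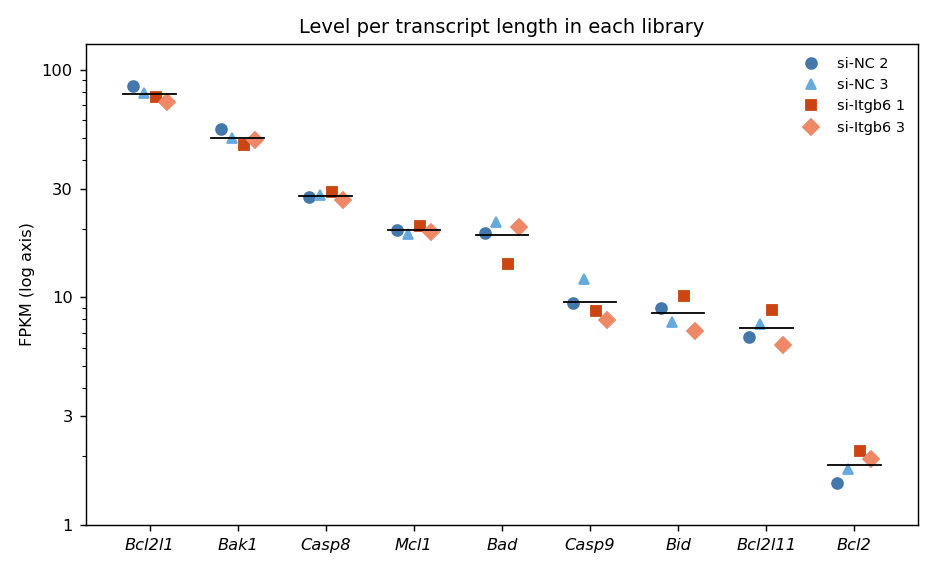
FPKM of the 9 genes (log axis) in each of the 4 libraries, ordered by mean; lines mark the mean of the libraries. *Bcl2l1* leads at 78.0 FPKM and *Bcl2* is last at 1.84 FPKM, and *Bad* has 1 low library, si-*Itgb6* replicate 1 at 14.0 FPKM.

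Count and FPKM together give the transcript length that the authors' values imply, as the count divided by the FPKM and by the library total, and this length depends on which transcripts the reads were assigned to. For *Bcl2*, *Mcl1* and *Bid* it was within 2 bases of 7191, 3418 and 2189 bases in all 4 libraries, which are lengths of single annotated transcripts of these genes in GENCODE vM21. The reads of these 3 genes were thus placed on 1 transcript length throughout. The other 6 genes gave a length that moved between libraries, as a mix of transcripts does. *Casp9* implied 3897 bases in si-NC replicate 2, the length of its longest annotated transcript, and 3318 bases in si-NC replicate 3. Its si-*Itgb6* libraries lay between these, at 3660 and 3790 bases.

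*Bad* had the widest range, with 773 and 855 bases in si-NC and 1110 and 809 bases in si-*Itgb6*, a factor of 1.44 from lowest to highest. Its FPKM was 19.2 and 21.4 in si-NC and 14.0 and 20.4 in si-*Itgb6*. The low FPKM of si-*Itgb6* replicate 1 went with the longest implied transcript, and its CPM of 15.5 was not the lowest of the 4. For *Bcl2l1* the implied length was 2335 and 2365 bases in si-NC and 2181 and 2292 bases in si-*Itgb6*, shorter in both si-*Itgb6* libraries, with 9 transcripts annotated. *Bcl2l11*, with 8 annotated transcripts, implied 3761 and 3764 bases in si-NC and 3821 and 3979 bases in si-*Itgb6*, longer in both. Values per transcript were not analysed here, so which isoform, such as BCL-XL or BCL-XS, these lengths stand for was not tested.

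**Figure D4:**
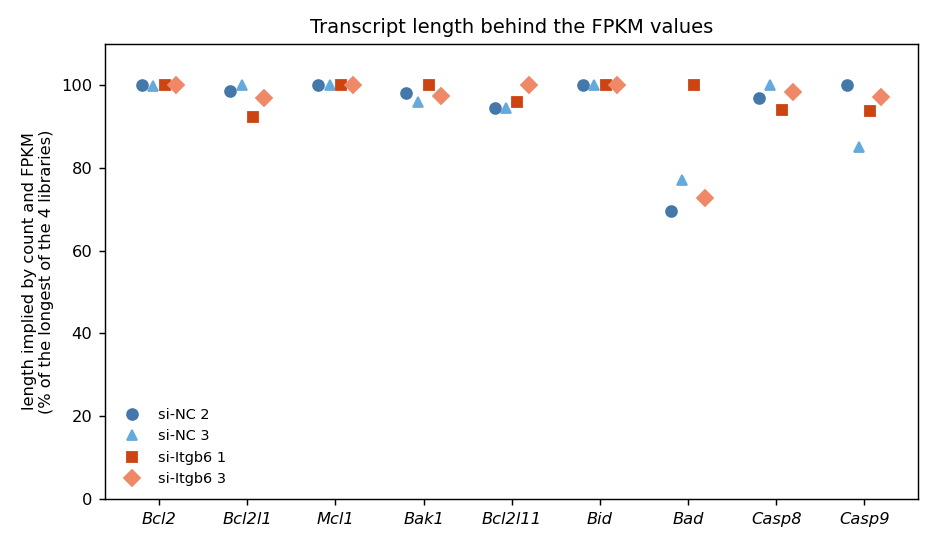
Transcript length implied by count and FPKM for each gene and library, as a percentage of the longest of the 4 libraries (axis from 0). *Bcl2*, *Mcl1* and *Bid* are flat, *Bad* reaches its longest value in si-*Itgb6* replicate 1, and *Casp9* its shortest in si-NC replicate 3.

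Since strand was not recorded in these libraries, reads from exons shared with another gene cannot be told apart. In GENCODE vM21, exons of 5 of the 9 genes overlap exons of a gene on the opposite strand: *Bcl2* with *D630008O14Rik*, *Bak1* with *Ggnbp1*, *Bid* with *Bcl2l13*, *Bad* with *Gpr137*, and *Casp9* with *Cela2a* and *Ctrc*. *Bcl2l1*, *Mcl1*, *Bcl2l11* and *Casp8* had no such partner. Among the 5 genes with a partner, estimated counts of *Bcl2*, *Bak1*, *Bid* and *Casp9* were whole in every library, and those of *Bad* were not whole in 3. The part of the overlaps in the counts was not tested.

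Around these 9 genes, 69 other genes of the apoptotic machinery were examined, of which 59 were tested. Of these, 7 were called by the looser rule (11.9%, against 9.57% of all genes tested), 6 higher and 1 lower, and 4 passed an adjusted p of 0.05, with 3 higher and 1 lower. Their median log2 fold change was 0.035. The calls lay on the death receptor side in 3 of 7 genes tested there, all higher. Beside them, the caspase substrates, the regulators and the inflammatory caspases had 1 each. The apoptosome and mitochondrial release genes, taken as 1 role, also had 1, the nuclease gene *Endog*, and no gene of the apoptosome itself was called. Of the 7 death receptor genes, 4 had positive and 3 negative log2 fold changes. The negative values were those of *Tradd* (-0.34), *Tnfrsf21* (-0.14) and *Fadd* (-0.13), none of which was called.

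*Cflar*, whose protein c-FLIP blocks caspase-8 at the receptor, had 35.4 and 41.2 CPM in si-NC and 49.4 and 51.1 CPM in si-*Itgb6*. It rose by 0.39 on the log2 scale (SE 0.0916, adjusted p = 0.00879, edgeR, quasi-likelihood), its counts were not whole in any of the 4 libraries, and its adjusted p was 0.401 without si-NC replicate 2. *Ripk1*, the gene of a kinase that joins the death receptor complex, had 16.9 and 18.8 CPM in si-NC and 22.7 and 25.8 CPM in si-*Itgb6*. In both genes the si-*Itgb6* libraries lay above those of si-NC. *Ripk1* rose by 0.44 (adjusted p = 0.0313, edgeR), which was lost with library size only (0.0503, at 0.43), with the GC and length correction (0.0820, at 0.41) and without si-NC replicate 2 (0.451), si-NC replicate 3 (0.102) or si-*Itgb6* replicate 3 (0.201). DESeq2 gave it no adjusted p, at a log2 fold change of 0.45. *Tnfrsf10b*, the mouse receptor of the ligand TRAIL, was called higher at 0.30 (adjusted p = 0.0858, edgeR).

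*Rock1*, a kinase that caspases cleave to drive membrane blebbing, had 58.9 and 56.5 CPM in si-NC and 70.7 and 73.6 CPM in si-*Itgb6*. It rose by 0.32 (adjusted p = 0.0112, edgeR, quasi-likelihood). Its adjusted p was above 0.05 with the GC and length correction (0.126, edgeR, at a log2 fold change of 0.23). The same held without si-NC replicate 2, si-NC replicate 3 or si-*Itgb6* replicate 3, at log2 fold changes of 0.35, 0.29 and 0.30. *Pim3*, a survival kinase that phosphorylates BAD, had 136 and 125 CPM in si-NC and 113 and 110 CPM in si-*Itgb6*, and it fell by 0.23 (adjusted p = 0.0374, edgeR), with a fold change under 1.2. It too did not overlap between groups, and its adjusted p was above 0.05 with DESeq2 (0.0737), with the GC and length correction (0.613, at -0.08) and without si-NC replicate 2 (0.580), si-NC replicate 3 (0.0942) or si-*Itgb6* replicate 3 (0.108). *Fbxw7*, a ubiquitin ligase subunit that marks MCL1 for degradation, was called higher at 0.81 from 48 to 88 counts (adjusted p = 0.0719, edgeR), while *Mcl1* mRNA had a log2 fold change of 0.06. *Endog*, a mitochondrial nuclease, was called lower at -0.43, and *Casp4*, an inflammatory caspase, higher at 0.71, with adjusted p-values of 0.153 and 0.186 (edgeR). Counts of *Endog* were not whole in any of the 4 libraries, and *Casp4* had 32 to 84 counts, with FPKM that overlapped between the groups. The call of *Fbxw7* was lost without si-*Itgb6* replicate 1 (0.64). Those of the other two were lost without si-NC replicate 2 (-0.21 for *Endog* and 0.40 for *Casp4*) or si-*Itgb6* replicate 3 (-0.40 and 0.39), and *Casp4* stood at 1.12 without si-NC replicate 3. DESeq2 (-0.43 and 0.71) and the GC and length correction (-0.27 and 0.57) ended both as well.

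In the other 5 roles no gene was called, and 1 gene had an unadjusted p under 0.05 (edgeR). Of the other anti-apoptotic BCL2 genes 1 was tested, *Bcl2l2* at 6.11 FPKM and a log2 fold change of -0.16. The 4 tested effector or atypical genes were led in FPKM by *Bax*, the partner of *Bak1* in pore formation, at 72.9 FPKM and 0.02. The 7 tested BH3-only genes were led by *Bnip3*, a hypoxia-induced gene of mitophagy, at 604 FPKM and 0.08, and *Pmaip1*, the gene of NOXA, named after its value was seen, had an unadjusted p under 0.05 at 0.19 (adjusted p = 0.0682, edgeR) with a fold change under 1.2. None of the 5 inhibitors of apoptosis was called, with *Birc5* at 132 FPKM and -0.02. None of the 4 executioner and other apoptotic caspases was called either. The genes with the highest FPKM in the remaining roles were *Vdac1* (421 FPKM), *Tnfrsf1a* (31.3 FPKM), *Acin1* (49.5 FPKM), *Dynll1* (106 FPKM) and *Mlkl* (43.3 FPKM), with log2 fold changes from 0.05 to 0.16 and no adjusted p under 0.05 with all libraries and no correction. *Acin1* passed with the GC and length correction (0.24, adjusted p = 0.0214, edgeR), and *Dynll1* without si-*Itgb6* replicate 1 (0.20, adjusted p = 0.0296, edgeR), where leaving out each library gave 0.030 to 0.20.

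**Figure D5:**
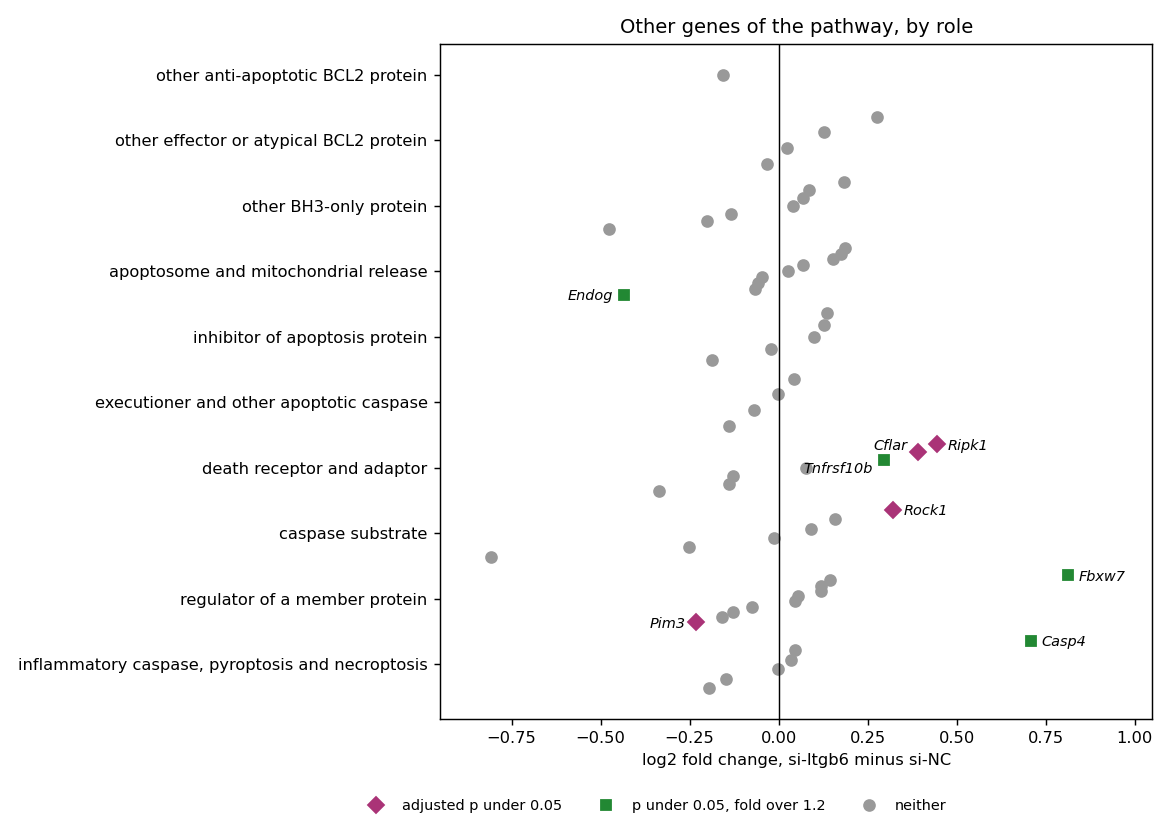
Log2 fold change (si-*Itgb6* minus si-NC, x axis) of the 59 tested pathway genes, by role; diamonds passed an adjusted p of 0.05, squares passed the looser rule alone and circles neither. Among the death receptor genes, *Cflar* and *Ripk1* stand at 0.39 and 0.44 and *Tradd* at -0.34. The executioner caspases lie between -0.14 and 0.04.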

How the data were processed

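The authors enriched polyadenylated RNA, made libraries without strand information, sequenced them in pairs and deposited FPKM values beside estimated counts of each gene without normalization. Aligner, counting tool, genome build and annotation are not given in the sources used here. The study states that samples were optimized after a cluster analysis, and libraries beyond these 4 were not analysed here. Estimated counts were rounded, filtered with filterByExpr (minimum count 10, minimum total 15), scaled by TMM and compared in edgeR 4.0.16 (R 4.3.3) by its quasi-likelihood F test, with Benjamini-Hochberg adjustment over 11727 genes. The common biological coefficient of variation was 0.0551. Intervals are at the 95% level and an exact permutation test of 2 against 2 cannot go below p = 0.333. FPKM values were described, not tested. Genes and lists were chosen with earlier results of these data known. Named are all members, pathway genes past a threshold and the tested gene of highest mean FPKM in each role, 1 of which is not reported here. Coding stretches and positions are from GENCODE vM21 (GRCm38), which may not be the authors' annotation. Protein sequences were not used here. Alternatives were edgeR's exact and likelihood ratio tests, DESeq2 1.42.0, RLE factors, library size only, 2 other filters, a fold change over 1.5, removal of GC and length trends, and leaving out each library.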

Additional observations from a re-analysis of the deposited data

How the results depend on the processing

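No paired analysis was possible because the groups share only 1 replicate number. Over all genes tested, the looser rule called 9.57% with all libraries, 9.64% with library size only and 7.18% with the GC and length trends removed. With DESeq2 it called 4.18% of 15340 genes. Of the 9 genes described here, 2 were called by this rule with all libraries. The number was 1 with DESeq2 and 1 with library size only (*Casp9* each time), 0 with the GC and length trends removed, 0 with a fold change over 1.5, and 1 in each of the 4 fits that left out 1 library. The gene then called was *Casp9* without si-NC replicate 2, *Casp9* again without si-*Itgb6* replicate 1, *Bcl2* without si-NC replicate 3 and *Bcl2l11* without si-*Itgb6* replicate 3. The number with an adjusted p under 0.05 was 1 with all libraries and 0 with DESeq2, RLE factors or the GC and length trends removed, and it ranged from 0 to 1 when 1 library was left out. Called pathway genes went from 7 to 4 with the trends removed and to 2 with a fold change over 1.5, which is stricter by construction, and they ranged from 5 to 9 when 1 library was left out, with 5 for DESeq2 and 8 for library size only. The cause was not tested for the others.

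Over all genes, DESeq2 called 349 lower and 292 higher of 15340 genes (4.18%), against 610 and 512 of 11727 (9.57%) with edgeR. It had 286 adjusted calls (1.86%) against 542 (4.62%), over these different sets of genes. Removing the trends left 217 adjusted calls, and leaving out 1 library gave 13 to 781. With the trends removed, the sign turned for *Bak1* (0.0050), *Bad* (0.041) and *Bnip3* (-0.018). Across the fits without 1 library, values ranged from -0.21 to 0.27 for *Bid*, -0.10 to 0.32 for *Bcl2l11*, -0.18 to 0.13 for *Bad*, -0.058 to 0.020 for *Casp8*, -0.17 to -0.0078 for *Bak1*, 0.026 to 0.10 for *Mcl1* and -0.10 to 0.091 for *Itgb6*.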

Other observations

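Of the 69 other genes of the apoptotic machinery, 10 had too few counts to test, with at most 14 counts in a library. Of these, *Bcl2a1b*, *Bcl2a1d*, *Bcl2l10* and *Fasl*, named after their values were seen, had 0 counts in all 4 libraries, which allows a level of up to 0.174 to 0.194 CPM in a library (3 counts), for counting error only. The first 3 encode anti-apoptotic BCL2 proteins that are known from blood cells or germ cells, and *Fasl* encodes the ligand of the death receptor FAS.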
